A study of Mus musculus with 21 samples.

Results

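The 10 genes described here encode receptors for growth factors and for cytokines of type 2 immunity in conventional dendritic cells (cDCs). They were chosen by name, as Flt3, Kit, Csf2ra, Csf2rb, Csf2rb2, Il4ra, Il13ra1, Il7r, Crlf2 and Il2rg, with earlier results of these data known. They are 10 of the 37734 genes listed for each library, and all 10 were among the 14970 genes tested, which had a normalized read count of at least 10 in at least 3 samples. Il7r had the widest range of group means among the 10. Kit was at its lowest in mature thymic cDCs, whereas Il7r had group means of 24.5 to 63.8 normalized reads in 3 of the 4 immature groups and 7395 ± 1759 (SD, n = 3) in mature thymic cDC2.

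These receptors share chains. FLT3 and KIT are receptor tyrosine kinases, for FLT3 ligand and stem cell factor, and FLT3 signalling drives the development of cDCs from their progenitors. The GM-CSF receptor joins an alpha chain, Csf2ra, with the common beta chain, Csf2rb, which also serves the IL-3 and IL-5 receptors, and mice carry a close copy of that gene, Csf2rb2, whose product pairs with the IL-3 receptor alpha chain. IL-4 binds Il4ra together with either the common gamma chain, Il2rg, or Il13ra1, and the pair of Il4ra and Il13ra1 also binds IL-13. Il7r pairs with Il2rg to bind IL-7 and with Crlf2 to bind TSLP, a cytokine of epithelial cells that acts on DCs. Apart from both kinases, these receptors signal through Jak kinases and Stat transcription factors.

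All cells came from C57BL/6 mice aged 6 to 8 weeks with no genetic change and no treatment, and each library was made from cells pooled from 10 to 15 mice. The cDC1 were sorted as CD24+ CD11b- CD11c+ cells and the cDC2 as CD24- CD11b+ CD11c+ cells, and within each subset immature cells were CCR7- ESAM- and mature cells CCR7+ ESAM+. The 6 groups were immature splenic cDC1 (SP1Minus, 4 samples), immature thymic cDC1 (TH1Minus, 4 samples), mature thymic cDC1 (TH1Plus, 3 samples), immature splenic cDC2 (SP2Minus, 3 samples), immature thymic cDC2 (TH2Minus, 3 samples) and mature thymic cDC2 (TH2Plus, 3 samples). Mature splenic cells were not analysed here, and splenic cells are therefore immature wherever they are named. Because CCR7 and ESAM defined the mature gate, the maturation comparison is one between sorted cells of both kinds and not a time course.

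The 21 libraries held from 14266867 to 40119669 reads. Replicates 4 and 5 of splenic cDC1 carry the same pool number and lane. A chi-square test over genes gave 2.44 per degree of freedom for this pair and 25.0 to 176 in the remaining pairs of the group, so the mean of both was used as 1 sample. Replicates 3 and 4 of immature thymic cDC1 also carry 1 pool number and lane but differed by 92.8 per degree of freedom and were kept apart, and replicate 1 of splenic cDC1 carries the pool number of replicates 4 and 5. Both groups thus hold 3 pool numbers, and with 1 sample for each pool and group the same number of members was called in each comparison. The labels do not say how the pools of mice were formed, and the p-values measure the spread between these samples, which may be partly technical. Defining markers went with the labels in the immature groups. The summed value of 4 cDC1 markers (Xcr1, Clec9a, Batf3, Cadm1) was 28775 to 43129 in immature cDC1 and 1038 to 2443 in immature cDC2. In mature cells it was 6804 to 7785 in cDC1 and 3341 to 5591 in cDC2, since Xcr1 was at 440 ± 164 in the former while Batf3 was at 4998 ± 611 and 4532 ± 1139. The 4 markers of cDC2 (Sirpa, Itgam, Irf4, Clec10a) summed to 13905 to 17400 in mature cDC2 and to 2113 to 3600 in mature cDC1. Itgam, which encodes the CD11b of the cDC2 gate, was at only 20.4 ± 15.4 in mature cDC2.

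The sequences before the start sites of 5 members are shown because these genes had the 5 widest ranges of group means, and that of Crlf2 because of its base composition. RefSeq promoter entries (GRCm38.p6) matched 9 of the 10 members, all except Csf2rb. Each line gives the 250 bases before the RefSeq start, which can lie inside the first exon of another transcript, read 5′ to 3′ on the strand of the gene. Il7r lies at chr15:9529877-9530126 on the minus strand, Kit at chr5:75574737-75574986 on the plus strand, Il4ra at chr7:125552021-125552270 on the plus strand, Il2rg at chrX:101268256-101268505 on the minus strand, Csf2rb2 at chr15:78305722-78305971 on the minus strand and Crlf2 at chr5:109558994-109559243 on the minus strand. Capitals mark the letters of a Stat motif (TTCNNNGAA) or a PU.1 motif (GAGGAA), searched on both strands, and the windows of Il4ra and Il2rg hold neither.
Il7r: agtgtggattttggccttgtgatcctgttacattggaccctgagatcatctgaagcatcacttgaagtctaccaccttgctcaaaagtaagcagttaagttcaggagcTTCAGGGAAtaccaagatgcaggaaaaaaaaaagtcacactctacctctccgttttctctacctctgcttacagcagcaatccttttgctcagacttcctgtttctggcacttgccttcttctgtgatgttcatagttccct
Kit: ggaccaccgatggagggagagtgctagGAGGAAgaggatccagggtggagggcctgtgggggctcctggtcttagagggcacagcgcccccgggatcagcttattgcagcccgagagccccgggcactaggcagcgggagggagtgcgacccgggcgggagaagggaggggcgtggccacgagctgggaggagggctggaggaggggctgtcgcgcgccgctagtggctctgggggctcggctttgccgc
Il4ra: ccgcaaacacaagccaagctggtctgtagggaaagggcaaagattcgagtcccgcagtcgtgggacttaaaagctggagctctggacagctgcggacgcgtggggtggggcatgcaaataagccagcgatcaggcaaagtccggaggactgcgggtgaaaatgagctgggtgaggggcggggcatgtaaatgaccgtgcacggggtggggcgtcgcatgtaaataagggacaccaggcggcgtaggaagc
Il2rg: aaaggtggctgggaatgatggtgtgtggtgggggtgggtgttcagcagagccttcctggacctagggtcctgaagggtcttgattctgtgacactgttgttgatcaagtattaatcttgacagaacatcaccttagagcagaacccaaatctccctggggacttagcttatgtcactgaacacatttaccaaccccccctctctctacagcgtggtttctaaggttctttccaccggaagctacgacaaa
Csf2rb2: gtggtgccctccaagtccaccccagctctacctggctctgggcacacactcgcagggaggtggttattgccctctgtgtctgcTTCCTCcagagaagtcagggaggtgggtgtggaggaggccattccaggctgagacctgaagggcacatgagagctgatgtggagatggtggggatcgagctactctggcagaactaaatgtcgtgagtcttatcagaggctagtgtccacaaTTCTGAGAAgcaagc
Crlf2: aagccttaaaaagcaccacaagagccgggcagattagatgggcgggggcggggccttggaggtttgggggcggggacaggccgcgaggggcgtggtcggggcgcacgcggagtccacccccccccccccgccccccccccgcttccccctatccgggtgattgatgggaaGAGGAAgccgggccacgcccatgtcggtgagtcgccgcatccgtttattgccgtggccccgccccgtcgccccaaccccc

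The Stat letters occurred in the windows of Il7r and Csf2rb2 among the 9 members, and in 7.04% of 32536 promoter windows of the same length. The PU.1 letters occurred in those of Kit, Crlf2, Csf2rb2 and Csf2ra, and in 23.4% of all windows. The Stat6 motif, with 1 more base between both arms (in 5.89% of windows), and the Ets-interferon composite motif (in 2.31%) matched none of the 9 windows. The Crlf2 window was 71.6% G and C, that of Il7r 44.0%. A match is only a run of letters in this window.

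More of these genes were called with maturation of thymic cDCs than in the other comparisons, which was also so for all genes. A gene was called at a Benjamini-Hochberg adjusted p below 0.1 in limma and an absolute log2 fold change above 1. Between mature and immature thymic cDC1, 7 of the 10 receptor genes were called, where 45.7% of all genes were. Il7r, Il4ra, Il2rg, Csf2rb and Csf2rb2 rose, and Kit and Crlf2 fell. Between mature and immature thymic cDC2, 5 of the 10 were called, against 35.6% of all genes, with Il7r, Csf2rb2, Il4ra and Csf2rb higher and Kit lower. The samples of both groups did not overlap for 9 of the 10 in cDC1 and 8 of the 10 in cDC2, which was also so for 55.3% and 60.0% of all genes. The median log2 fold change of the 10 was 1.06 in cDC1 and 0.37 in cDC2, against -0.04 and 0.04 over all genes tested. In bulk samples, fewer cells with a transcript and less of that transcript per cell cannot be told apart.

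**Figure D1:**
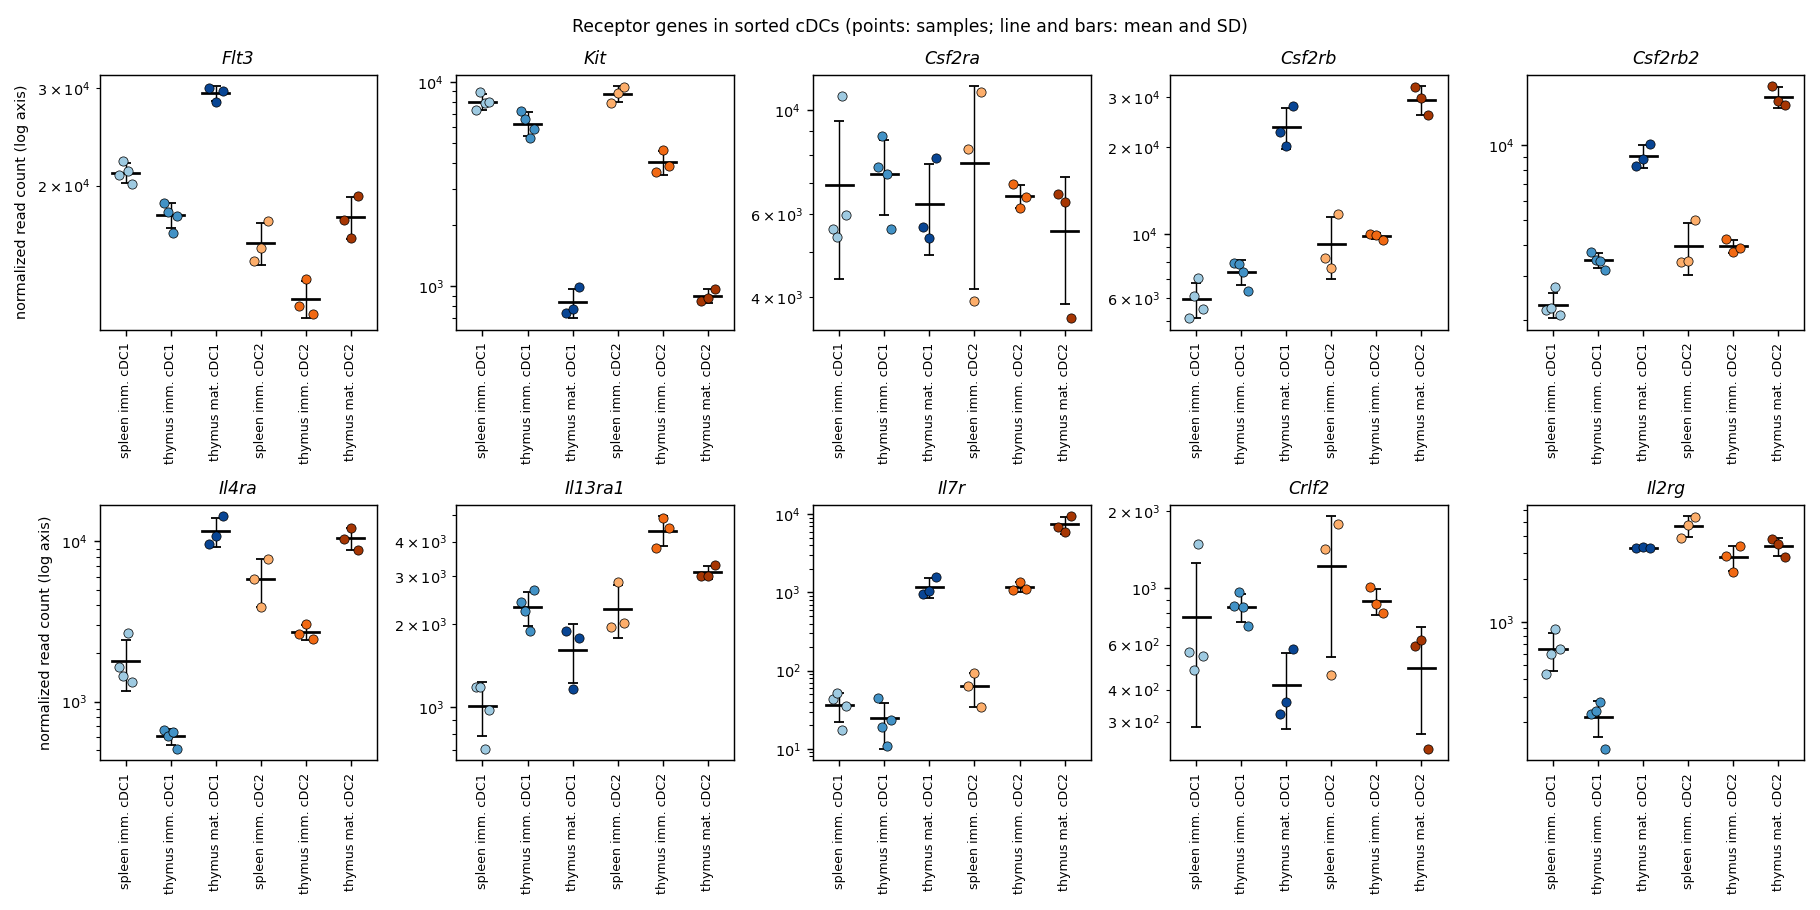
Normalized read counts (log axis) of the 10 receptor genes in each of the 20 samples, by group, with the mean (line) and SD (bars) of 3 or 4 samples. Kit lies between 741 and 995 in the 6 mature samples and at 3637 or more in the 14 immature ones, while the 6 mature samples hold the highest values of Csf2rb, Csf2rb2 and Il4ra.

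Fewer of these genes were called between tissues and between subsets, and fewer of all genes were as well. Between immature thymic and splenic cDC1, 3 of the 10 were called (8.77% of all genes), with Il13ra1 higher and Il4ra and Il2rg lower in the thymus. Between immature thymic and splenic cDC2, 3 of the 10 were called (14.2% of all genes), with Il7r higher and Kit and Il4ra lower in the thymus. Splenic cDC2 differed from splenic cDC1 in 3 of the 10 (16.6% of all genes), Il4ra, Il13ra1 and Il2rg, all higher in cDC2, where 9.93% of all genes were called higher. Immature thymic cDC2 differed from their cDC1 counterparts in 3 of the 10 (16.4% of all genes), Il4ra, Il7r and Il2rg, again higher in cDC2 (11.0% of all genes). Mature thymic cDC2 and cDC1 differed in 1 of the 10 (18.9% of all genes), Il7r, which was higher in cDC2 (14.6% of all genes). The immature thymic groups take part in comparisons of tissue, subset and maturation alike, so these comparisons share samples.

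**Figure D2:**
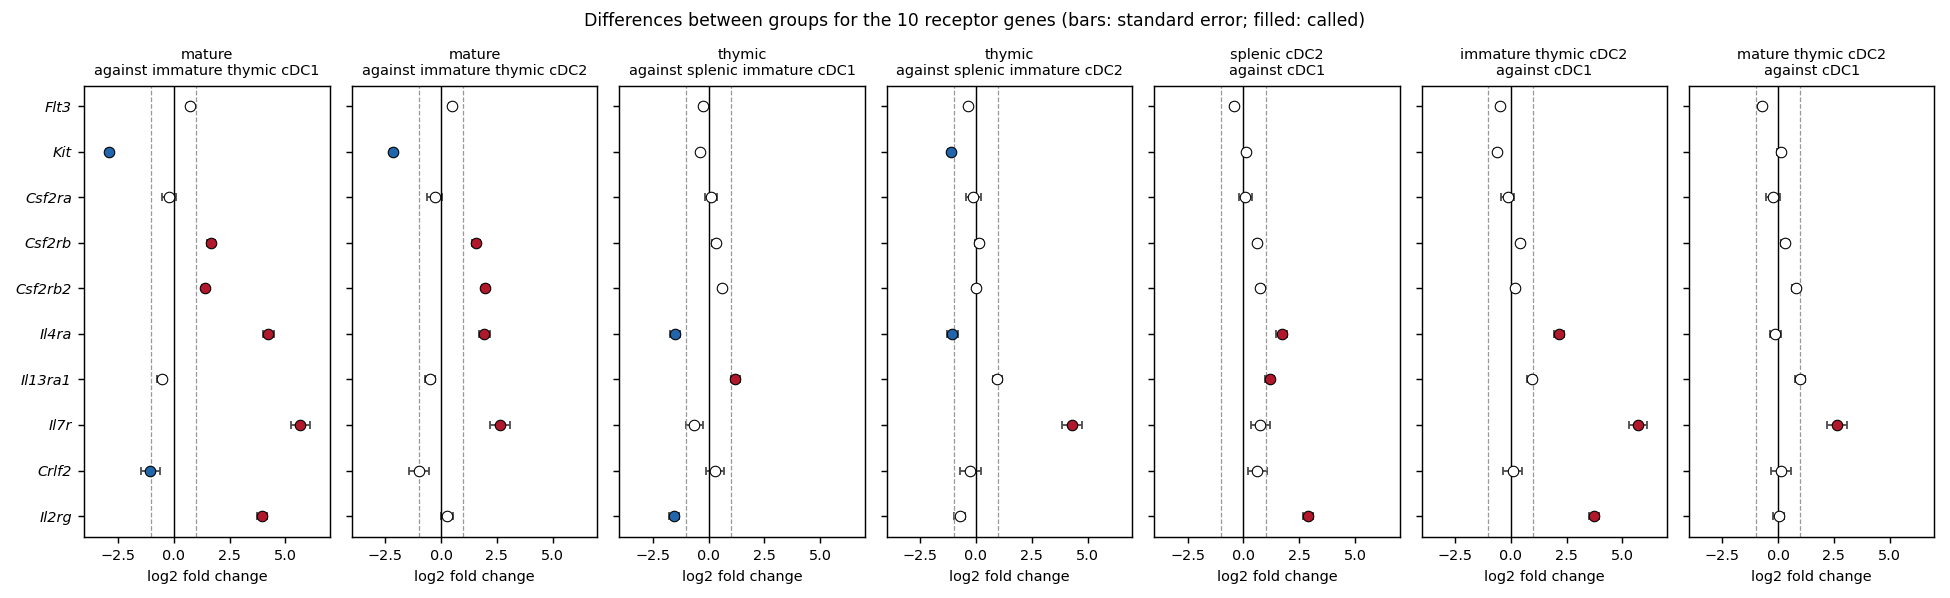
Log2 fold changes (x axis, with standard errors) of the 10 receptor genes in 7 comparisons of 2 groups, from limma over 14970 genes. Filled points passed both thresholds, and the dashed lines mark a log2 fold change of 1 in either direction. Il7r lies at 5.67 and 2.63 in the 2 maturation comparisons, Kit at -2.91 and -2.16.

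Flt3 had the highest level per length of the 10 in the 3 cDC1 groups, at 123 to 166 RPKM (reads scaled to exon length and to the library total). It was transcribed from chr5:147330741-147400489 on the minus strand (GENCODE M21, mm10). Its normalized read counts were 20862, 22184, 21217 and 20089 in splenic cDC1, 18627, 17952, 16444 and 17648 in immature thymic cDC1, and 30020, 28316 and 29653 in mature thymic cDC1. The cDC2 groups stood at 14596, 15412 and 17274 in the spleen, 12141, 13560 and 11737 in immature thymic cells and 17353, 16086 and 19126 in mature thymic cells. In normalized read counts, the 3 mature cDC1 samples were above all other samples, and the 3 immature thymic cDC2 samples were below all others. Neither held in RPKM. On that scale replicate 3 of mature cDC1 was at 153, under replicate 2 of splenic cDC1 at 159. Replicate 2 of immature thymic cDC2 was at 97.6, above replicate 2 of mature thymic cDC2 at 93.3. The RPKM means of thymic cDC2 were 91.7 ± 6.04 in immature and 104 ± 10.0 (SD) in mature cells. In none of the 7 comparisons of 2 groups did Flt3 differ 2-fold. Mature thymic cDC1 were higher than immature ones by a log2 fold change of 0.73 ± 0.12 (SE, adjusted p = 3.19e-05), and mature thymic cDC2 by 0.49 ± 0.13 (adjusted p = 0.00425). Within the mature cells, cDC2 were lower than cDC1, with a log2 difference of -0.75 ± 0.13 (adjusted p = 0.000297).

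Kit, the receptor of stem cell factor (chr5:75574916-75656722, plus strand), moved the other way. It was at 7248, 6600, 5307 and 5896 in immature thymic cDC1 and at 741, 771 and 995 in mature ones. In cDC2 it was at 3637, 4637 and 3865 in immature thymic cells and at 843, 879 and 974 in mature ones. The mature samples of both subsets lay within one narrow range, far under every immature sample. Kit fell by 2.91 ± 0.14 (SE) on the log2 scale in cDC1 (adjusted p = 5.69e-13, 7.49-fold between the means) and by 2.16 ± 0.15 in cDC2 (adjusted p = 3.77e-10, 4.50-fold). The maturation difference of Kit was 0.74 ± 0.20 smaller in size in cDC2 (adjusted p = 0.0196), under the 2-fold threshold.

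Splenic cells held the most Kit. Its values were 7263, 8974, 7860 and 7943 in splenic cDC1 and 7903, 8826 and 9500 in splenic cDC2, and these groups overlapped. Thymic cDC2 were lower than splenic cDC2, with a log2 fold change of -1.12 ± 0.15 (adjusted p = 1.56e-05), a difference that was -1.20 within lane 5. Each immature thymic group has 1 sample in lane 5, and splenic cDC2 has 1 in lane 8, so organ differences within a lane are given as values with no test. Thymic cDC1 were lower than splenic cDC1, at -0.36 ± 0.13 (adjusted p = 0.0793), under 2-fold. Per length, Kit was 0.263 ± 0.018 of Flt3 in splenic cDC1 and 0.384 ± 0.011 in splenic cDC2, and 0.0198 ± 0.0032 (cDC1) and 0.0356 ± 0.0021 (cDC2) in mature thymic cells.

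Mast cells and progenitors are other sources of Kit. Of 6 markers of mast cells and basophils (Cpa3, Ms4a2, Fcer1a, Mcpt8, Tpsb2, Mcpt4), all 6 were at 0 in every sample of splenic cDC1, splenic cDC2 and immature thymic cDC2, and their sum reached at most 7.68 in the other groups. The 4 progenitor markers (Cd34, Mpo, Elane, Prtn3) summed to 49.1 to 301 in the immature groups and to 1.84 to 52.0 in the mature ones. Among them Cd34 had the highest mean in every group except mature thymic cDC1, where Mpo had it. Cd34 was at 56.9 ± 23.3 in immature thymic cDC1 and 0.881 ± 0.924 in mature ones, and at 126 ± 17.5 and 11.3 ± 2.40 in cDC2. The part of these markers in the difference in Kit was not tested.

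Of the chains of the GM-CSF receptor, both beta chains rose with maturation while values of the alpha chain overlapped between groups. Csf2ra, the chain that binds GM-CSF with low affinity (chr19:61223957-61228429, minus strand), had group means between 5535 and 7697. Its log2 difference was -0.22 ± 0.30 between mature and immature thymic cDC1 (SE, adjusted p = 0.555) and -0.29 ± 0.32 in cDC2 (adjusted p = 0.480), and each of its 7 two-group comparisons had overlapping samples. Within the splenic groups Csf2ra spread from 5360 to 10693 (cDC1) and from 3925 to 10913 (cDC2).

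Csf2rb (chr15:78325752-78353847, plus strand) was at 7905, 7876, 7351 and 6326 in immature thymic cDC1 and at 22718, 20223 and 27867 in mature ones. In thymic cDC2 it was at 10005, 9936 and 9536 in immature and at 32441, 29753 and 25827 in mature cells. Every mature sample stood above every immature sample of either organ. Csf2rb rose by 1.67 ± 0.16 on the log2 scale in cDC1 (SE, adjusted p = 2.38e-08) and by 1.57 ± 0.17 in cDC2 (adjusted p = 2.98e-07). The splenic samples spanned 5117 to 7005 (cDC1) and 7605 to 11745 (cDC2), and neither group differed from its thymic immature counterpart beyond the threshold.

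Csf2rb2, the copy of the beta chain (chr15:78282507-78305721, minus strand), was at 3742, 3471, 3436 and 3172 in immature and 8273, 8790 and 10162 in mature thymic cDC1. In thymic cDC2 it was at 4210, 3743 and 3871 in immature and 17271, 15077 and 14508 in mature cells, and the 3 last values were the highest of all. It rose by 1.39 ± 0.14 in cDC1 (adjusted p = 4.64e-08) and by 1.98 ± 0.15 in cDC2 (adjusted p = 1.54e-09). Mature cDC2 stood above mature cDC1 by a log2 difference of 0.78 ± 0.15 (adjusted p = 0.000747), under 2-fold.

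The 2 beta chain genes are similar, and the split of reads between them is uncertain. In the longest Csf2rb transcript, 28.0% of windows of 31 bases and 3.47% of windows of 150 bases, the read length, also occurred in Csf2rb2. Their values rose and fell together over the 20 samples (Pearson's r = 0.98, a description over samples that share groups). Per length, Csf2rb2 was 0.595 ± 0.062 of Csf2rb in mature thymic cDC1, against 0.819 ± 0.042 in their cDC2 counterparts, and the samples of these groups did not overlap. The ratio of Csf2ra to Csf2rb per length was 2.24 to 2.83 in immature and 0.631 to 0.718 in mature thymic cDC1, and 1.58 to 1.76 and 0.354 to 0.542 in thymic cDC2. On this scale the alpha chain transcript was the more abundant one in each immature thymic sample and the less abundant one in each mature sample. The length used for Csf2rb was its exon union of 7277 bases, whereas its longest transcript has 4900. A shorter length would lower the ratios of Csf2rb2 and of Csf2ra to Csf2rb.

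Il4ra, the chain that binds IL-4 (chr7:125552120-125579474, plus strand), spanned a 19.2-fold range of group means. It was at 661, 607, 649 and 508 in immature thymic cDC1, the lowest values of all, and at 9702, 10826 and 14327 in mature ones. In thymic cDC2 it was at 2655, 3038 and 2455 in immature and at 10405, 12122 and 8904 in mature cells. The mature groups overlapped each other and stood above all immature samples. Il4ra rose by 4.25 ± 0.23 on the log2 scale in cDC1 (SE, adjusted p = 3.72e-12) and by 1.94 ± 0.25 in cDC2 (adjusted p = 1.75e-06).

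Splenic cells held more Il4ra than their immature thymic counterparts. The values were 1644, 1454, 2699 and 1332 in splenic cDC1 and 5815, 3893 and 7800 in splenic cDC2. The log2 fold change of thymic against splenic cells was -1.50 ± 0.21 in cDC1 (adjusted p = 3.82e-05) and, in cDC2, -1.05 ± 0.25 (adjusted p = 0.00408). The latter was -0.81 without replicate 3 of splenic cDC2 and -0.98 without replicate 3 of immature thymic cDC2, both under 2-fold. Within lane 5 the differences were -1.22 and -0.84. Subset mattered in both organs before maturation, since Il4ra was higher in cDC2 by 1.71 ± 0.23 in the spleen (adjusted p = 8.65e-06) and by 2.16 ± 0.23 in the thymus (adjusted p = 4.54e-07). An antisense gene, Gm44876, overlaps 9.51% of the exon bases of Il4ra, and whether the counting used strand is not given in the sources used here.

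Il13ra1, which completes the receptor for IL-13 (chrX:36112110-36171259, plus strand), followed organ and subset. It was at 1178, 1185, 706 and 976 in splenic cDC1 and at 2408, 2239, 1894 and 2674 in immature thymic cDC1. In cDC2 it was at 1961, 2856 and 2029 in the spleen and at 3803, 4891 and 4480 in immature thymic cells, the highest values of all. Thymic samples stood above splenic samples in both subsets. Il13ra1 rose by 1.21 ± 0.18 in thymic against splenic cDC1 (SE, adjusted p = 7.86e-05), while the cDC2 difference of 0.96 ± 0.21 (adjusted p = 0.00252) lay just under 2-fold and was 1.21 within lane 8. Splenic cDC2 were higher than splenic cDC1 by 1.18 ± 0.20 (adjusted p = 0.00011).

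Mature cells had 1886, 1163 and 1778 normalized reads of Il13ra1 in cDC1 and 2993, 3003 and 3285 in cDC2. These lay below the immature thymic samples of the same subset, by log2 differences of -0.54 ± 0.20 (adjusted p = 0.0248) and -0.50 ± 0.21 (adjusted p = 0.0594), neither of them 2-fold. The difference between mature cDC2 and mature cDC1 was 0.97 ± 0.21 (adjusted p = 0.00205). It exceeded 1 after TMM rescaling (1.02) and without replicate 1 (1.10) or replicate 3 (1.06) of mature thymic cDC1.

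The ratio of both IL-4 receptor partners changed with maturation. Per length, Il13ra1 was 6.27 ± 1.60 times Il4ra in immature thymic cDC1 and 2.62 ± 0.32 times in immature thymic cDC2. In the mature cells it was 0.174 to 0.314 of Il4ra in cDC1 and 0.400 to 0.597 in cDC2. Il13ra1 was thus the more abundant transcript in all 7 immature thymic samples and Il4ra in all 6 mature samples, while in the spleen the ratio was 1.02 ± 0.41 in cDC1 and 0.717 ± 0.411 in cDC2.

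**Figure D3:**
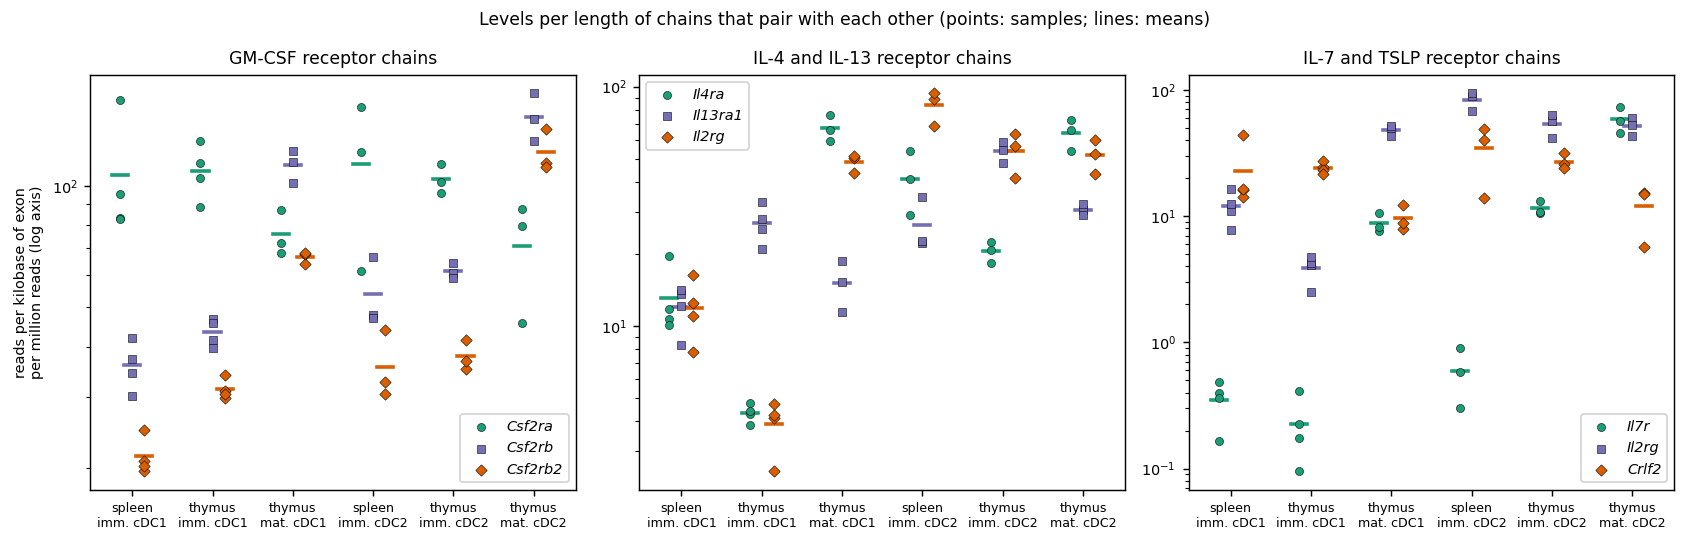
RPKM (log axis, reads scaled to exon length and library total) of receptor chains that pair, in each sample (points) with group means (lines). The IL-7 receptor alpha chain moves from 0.228 to 58.3 between its lowest and highest group mean while Crlf2 stays between 9.64 and 34.3.

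Il7r, the alpha chain of the IL-7 and TSLP receptors (chr15:9505788-9530176, minus strand), had the widest range of the 10, 302-fold between group means. In cDC1 it was at 43.2, 51.3, 17.5 and 35.0 in the spleen and at 44.8, 19.2, 10.9 and 23.2 in immature thymic cells. It was at 960, 1038 and 1564 in mature thymic cDC1, so the groups lay far apart. Il7r rose by 5.67 ± 0.41 on the log2 scale with maturation (SE, adjusted p = 2.68e-10), 48.4-fold between the means.

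In cDC2 the difference was already present between organs. Il7r was at 64.1, 93.1 and 34.2 in splenic cDC2, at 1061, 1373 and 1115 in immature thymic cDC2 and at 6896, 5939 and 9349 in mature thymic cDC2. The 3 groups did not overlap, and the immature thymic cDC2 overlapped the mature thymic cDC1. Thymic cDC2 were higher than splenic cDC2 by 4.29 ± 0.44 (adjusted p = 5.21e-07), and mature thymic cDC2 higher than immature ones by 2.63 ± 0.44 (adjusted p = 4.84e-05). The organ difference in cDC2 was 5.14 within lane 8 and 3.76 within lane 5. Between the subsets, Il7r was higher in cDC2 by 5.69 ± 0.41 among immature thymic cells (adjusted p = 1.77e-09) and by 2.65 ± 0.44 among mature ones (adjusted p = 0.000164), and the difference of 0.77 ± 0.41 in the spleen was not called (adjusted p = 0.207).

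Because thymocytes also carry Il7r, T cell markers were read beside it. The 7 T cell markers (Cd3e, Cd3g, Cd3d, Lck, Cd8b1, Rag1, Ptcra) summed to 140 to 218 in immature thymic cDC1 and to 1170 to 2065 in mature ones. They summed to 28.1 to 76.9 in splenic cDC2, 163 to 255 in immature thymic cDC2 and 679 to 1071 in mature thymic cDC2. The list therefore moved with Il7r over maturation, with Cd8b1 at 859 ± 287 and Lck at 215 ± 82.3 in mature thymic cDC1, and Ptcra near 0 in all groups. Their part in the result was not tested. Normalized read counts of different genes are not scaled to length, so the level of Il7r was not weighed against this sum. Of other lymphoid genes, Ncr1, Klrb1c and Eomes had group means of at most 2.15 in the thymic groups. Plasmacytoid DC genes also differed between the organs in cDC2, with Siglech at 86.4 ± 33.8 in splenic and 889 ± 205 in immature thymic cDC2 and Ccr9 at 149 ± 42.2 and 632 ± 58.2 (SD). In mature thymic cDC2 Siglech was at 38.2 ± 2.42 and Ccr9 at 283 ± 115, and their part in the Il7r values was not tested.

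Crlf2, the TSLP-binding chain (chr5:109554709-109558993, minus strand), was lower in mature cells. It was at 848, 966, 844 and 708 in immature and at 321, 359 and 577 in mature thymic cDC1, and at 1003, 862 and 796 in immature and 594, 624 and 235 in mature thymic cDC2. No sample overlapped in either subset. In cDC1 it fell by 1.04 ± 0.43 on the log2 scale (SE, adjusted p = 0.0412), a call lost at -0.98 without replicate 2 of immature thymic cDC1 and at -0.88 or -0.96 without replicate 1 or 2 of mature thymic cDC1. In cDC2 the difference of -0.99 ± 0.46 (adjusted p = 0.081) was just under 2-fold. Per length, Crlf2 was 138 ± 79.7 times Il7r in immature thymic cDC1, 2.38 ± 0.51 times in immature thymic cDC2, 1.09 ± 0.06 times in mature thymic cDC1 and 0.225 ± 0.130 times in mature thymic cDC2. Thus the alpha chain was the scarcer of the TSLP receptor transcripts in the 17 samples outside mature thymic cDC2, and the more abundant one in those 3.

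Both Crlf2 and Csf2ra moved between replicates with the base composition of the library. The longest Crlf2 transcript is 65.6% G and C, more than 99.7% of the 14951 tested genes with a known value, and that of Csf2ra 57.8%, more than 90.9%. In replicate 3 of splenic cDC1, the median of the 1496 tested genes of highest GC content was 0.63 above the group mean on the log2 scale, Crlf2 was 1.12 above and Csf2ra 0.69 above. In replicate 2 of splenic cDC2 the same genes were at -0.59, with Crlf2 at -1.19 and Csf2ra at -0.85, and in replicate 3 of mature thymic cDC2 they were at -0.39, with Crlf2 at -0.91 and Csf2ra at -0.56. Within its groups, Il4ra (55.8% G and C) was also highest in the first of these samples and lowest in the others. Il13ra1 (41.2%) and Il7r (40.5%), more than only 9.34% and 7.36% of tested genes, were lowest in the first and highest in the others. The organ differences of these genes include both splenic samples. An alternative added with the data in view centred the values within 20 bins of GC content. With it, the maturation difference of Crlf2 was -0.998 in cDC1 (adjusted p = 0.00032) and -1.33 in cDC2 (adjusted p = 4.21e-05).

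**Figure D4:**
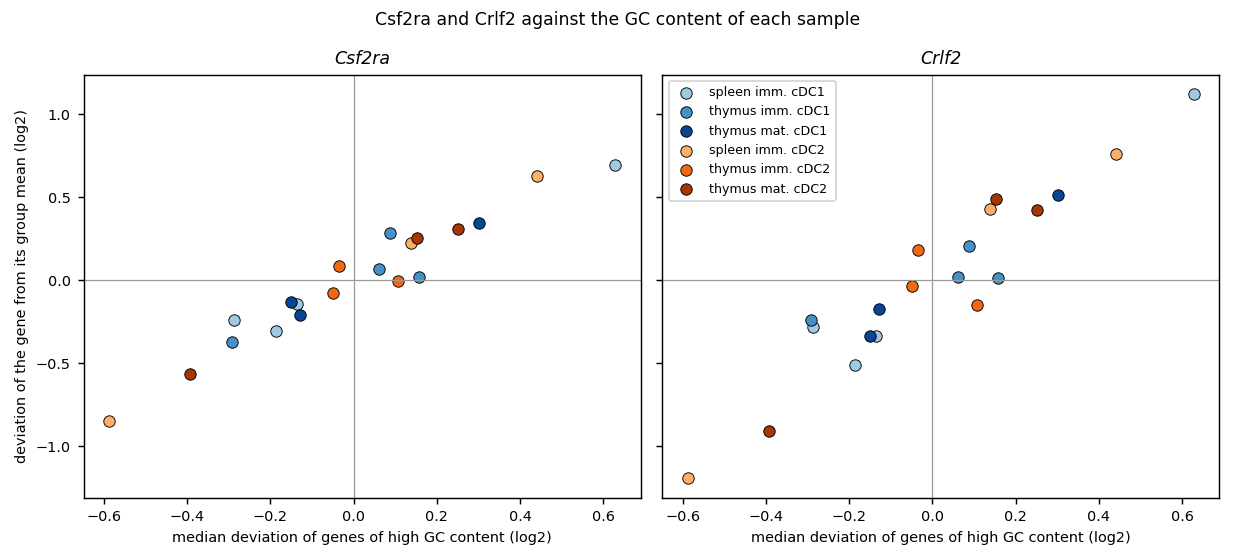
Deviation of Csf2ra and Crlf2 from their group mean (y axis, log2) against the median deviation of the 1496 tested genes of highest GC content (x axis, log2) in the 20 samples. The points run from replicate 2 of splenic cDC2 at the lower left to replicate 3 of splenic cDC1 at the upper right.

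Il2rg, the common gamma chain of the IL-2, IL-4, IL-7, IL-9, IL-15 and IL-21 receptors (chrX:101264378-101268255, minus strand), separated cDC1 from cDC2 before maturation. It was at 434, 592, 896 and 646 in splenic cDC1, at 228, 239, 275 and 130 in immature thymic cDC1 and at 3268, 3345 and 3257 in mature thymic cDC1. In cDC2 it was at 3864, 4706 and 5410 in the spleen, at 2878, 2231 and 3377 in immature thymic cells and at 3763, 3481 and 2837 in mature thymic cells. Mature cDC1 thus lay within the range of the thymic cDC2 samples, 15.1-fold above the mean of immature thymic cDC1. Il2rg rose by 3.96 ± 0.24 with maturation of cDC1 (SE, adjusted p = 1.58e-11), whereas the difference in cDC2 was 0.26 ± 0.25 (adjusted p = 0.432) with overlapping samples.

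Il2rg was higher in cDC2 than in cDC1 by 2.89 ± 0.24 in the spleen (adjusted p = 9.43e-09) and by 3.72 ± 0.24 among immature thymic cells (adjusted p = 3.33e-10). It was lower in thymic than in splenic cDC1, with a log2 fold change of -1.56 ± 0.22 (adjusted p = 3.47e-05), or -1.15 within lane 5. In splenic cDC2, whose Il2rg was highest, the 7 T cell markers summed to 28.1 to 76.9. Of 2 B cell markers, Cd79b was at 437 ± 52.5 there and at 86.5 ± 41.6 (SD) in splenic cDC1, while Ms4a1 was at 173 ± 64.9 in splenic cDC2 and at 760 ± 234 in splenic cDC1. The part of these cells in the Il2rg values was not tested. Another gene model on the same strand, Gm20489, overlaps 30.5% of the exon bases of Il2rg and is listed at 0 in all libraries, and the level per length of Il2rg is uncertain for that reason.

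The difference between the subsets in the effect of maturation was tested in the same model. It was called for 3 of the 10 genes, where 13.6% of all genes were called, and all 3 had the smaller rise in cDC2, the direction in which 5.25% of all genes were called. The log2 difference between the effects was -3.70 ± 0.35 for Il2rg (SE, adjusted p = 6.51e-07), -3.05 ± 0.60 for Il7r (adjusted p = 0.00188) and -2.30 ± 0.34 for Il4ra (adjusted p = 0.000114). For each of these, immature thymic cDC2 were higher than immature thymic cDC1. After maturation Il4ra and Il2rg overlapped between the subsets, with differences of -0.14 ± 0.25 (adjusted p = 0.733) and 0.02 ± 0.25 (adjusted p = 0.970), and Il7r did not. The effect of organ differed between the subsets for 1 of the 10 genes, where 4.98% of all genes were called, namely Il7r (4.93 ± 0.58, adjusted p = 1.61e-05), in the direction called for 3.27% of all genes.

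The rest of the pathway was read from lists chosen with earlier results of these data known. Of 13 ligand genes, 3 had enough reads to be tested, Il7, Il15 and Tslp. Il15 rose with maturation, from 582 ± 106 to 5599 ± 543 in thymic cDC1 (log2 fold change 3.28 ± 0.16, adjusted p = 9.78e-13) and from 252 ± 29.5 to 4455 ± 508 in cDC2 (4.14 ± 0.17, adjusted p = 4.29e-13). Il7, the ligand of Il7r, rose from 13.2 ± 5.73 to 117 ± 28.6 in thymic cDC2 (3.11 ± 0.68, adjusted p = 0.000772) and was at 68.3 ± 31.3 in mature thymic cDC1. Tslp was at 30.9 ± 21.2 in mature and 1.84 ± 2.17 in immature thymic cDC1. Il3, Il4, Il9 and Flt3l were listed at 0 in all samples, and Il13 had group means of at most 7.63. For Flt3l this is no measure of expression, since other annotated genes overlap its exons, Rpl13a over 42.0% of the bases and a second Flt3l model over 58.0%.

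Of 10 related receptor chains, 8 were tested. With maturation of cDC1, 5 were called higher and 2 lower, and with maturation of cDC2, 5 higher and 1 lower, where 45.7% and 35.6% of all genes were called in either direction. Il15ra went from 252 ± 23.7 to 14500 ± 418 in thymic cDC1 and from 131 ± 21.9 to 8028 ± 751 in cDC2. Il2ra, the alpha chain of the IL-2 receptor, was at 1065 ± 399 (cDC1) and 6383 ± 542 (cDC2) in mature thymic cells, against 7.99 ± 7.67 and 88.1 ± 27.5 in the immature cells. Il21r rose by 7.62 ± 0.21 in cDC1 and by 2.96 ± 0.23 in cDC2, Il9r by 7.33 ± 0.60 and 7.20 ± 0.64, and Il3ra by 1.49 ± 0.30 and 1.64 ± 0.32. Il2rb, which pairs with the common gamma chain, was not called, with 1.37 ± 0.85 in cDC1 (adjusted p = 0.175) and -0.50 ± 0.91 in cDC2 (adjusted p = 0.693). Csf1r, the receptor of M-CSF, fell from 991 ± 112 to 40.1 ± 33.5 in cDC1 and from 13161 ± 1430 to 2771 ± 1885 in cDC2. Of the mature thymic cDC2 samples, 1 was at 595 and the others at 3826 and 3892. Macrophage markers, of which C1qb had the highest mean, also differed widely among these samples. Their part in the Csf1r values was not tested. Csf3r, outside the rule for named genes and named after its values were seen, also fell in cDC1, from 15.8 ± 5.78 to 2.48 ± 2.85.

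Of 8 Jak kinases and Stat factors, 5 rose with maturation in cDC1 (Stat5a, Stat3, Jak2, Tyk2 and Jak3) and 3 in cDC2 (Tyk2, Stat3 and Jak3), and none fell. The share of all genes called was 45.7% and 35.6%, and the count in cDC2 was close to it. Stat5a, which acts downstream of the GM-CSF and IL-7 receptors, rose by 2.14 ± 0.20 in cDC1 (adjusted p = 1.70e-08). It was already 1.14 ± 0.22 higher in thymic than in splenic cDC2 (adjusted p = 0.000698). Stat6, which acts downstream of Il4ra, was called in none of the comparisons of 2 groups, and its log2 difference of 0.996 between mature and immature thymic cDC1 (adjusted p = 0.000177) lay at the 2-fold threshold.

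Of 8 negative regulators, 4 rose in thymic against splenic cells of each subset, where 8.77% (cDC1) and 14.2% (cDC2) of all genes were called either way. These were Cish, Socs1, Socs2 and Socs3, which bind and restrain cytokine receptors or Jak kinases and are themselves induced by Stat factors. Cblb fell in thymic against splenic cDC2. Cish was at 37.6 ± 5.64 in splenic and 1663 ± 319 in immature thymic cDC2 (log2 fold change 5.42 ± 0.56, adjusted p = 5.99e-07). It was at 4.03 ± 3.25 in splenic and 156 ± 27.9 in immature thymic cDC1. Socs2 was at 16.2 to 24.4 in splenic, 679 ± 38.7 in immature thymic and 23488 ± 4422 in mature thymic cDC2. With maturation Socs1, Socs2 and Cblb rose and Inpp5d, which encodes the phosphatase SHIP1, fell in both subsets, and Cish and Socs3 fell in cDC2.

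Of 11 genes known to respond to type 2 cytokines, 10 were tested. Of these, 9 were called higher in thymic than in splenic cDC2, where 14.2% of all genes were called either way. All 10 were called higher in immature thymic cDC2 than cDC1, where 11.0% of all genes were called higher. Earlier results of these data had shown part of this list, so its direction is not independent evidence. Ccl17, a chemokine that attracts CCR4+ T cells, was at 7.46 ± 6.47 in splenic and 5689 ± 778 in immature thymic cDC2. Ccl22, which binds the same receptor, was at 218 ± 103 and 15572 ± 3575, Mrc1, the mannose receptor, at 219 ± 23.0 and 2265 ± 319, and Retnla at 0 in each splenic cDC2 sample and at 142 ± 119 in immature thymic cDC2. In cDC1, 2 of the 10 (Ccl17 and Ccl22) were called between the organs, where 8.77% of all genes were. With maturation, 6 of the 10 rose in cDC1, and in cDC2 5 rose and 2 fell, Mrc1 by 3.53 ± 0.51 on the log2 scale. Of all genes, 45.7% (cDC1) and 35.6% (cDC2) were called either way with maturation. Of 4 macrophage markers, Adgre1 was at 1874 ± 144 in immature thymic cDC2 against 4534 ± 368 in splenic cDC2, and Mertk at 148 ± 32.6 against 63.5 ± 38.7. C1qa was at 2289 ± 609 against 360 ± 98.7, and C1qb at 2539 ± 739 against 443 ± 129. The group mean of each of these 4 was at most 97.9 in immature thymic cDC1. Their part in the Mrc1 and Retnla values was not tested.

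**Figure D5:**
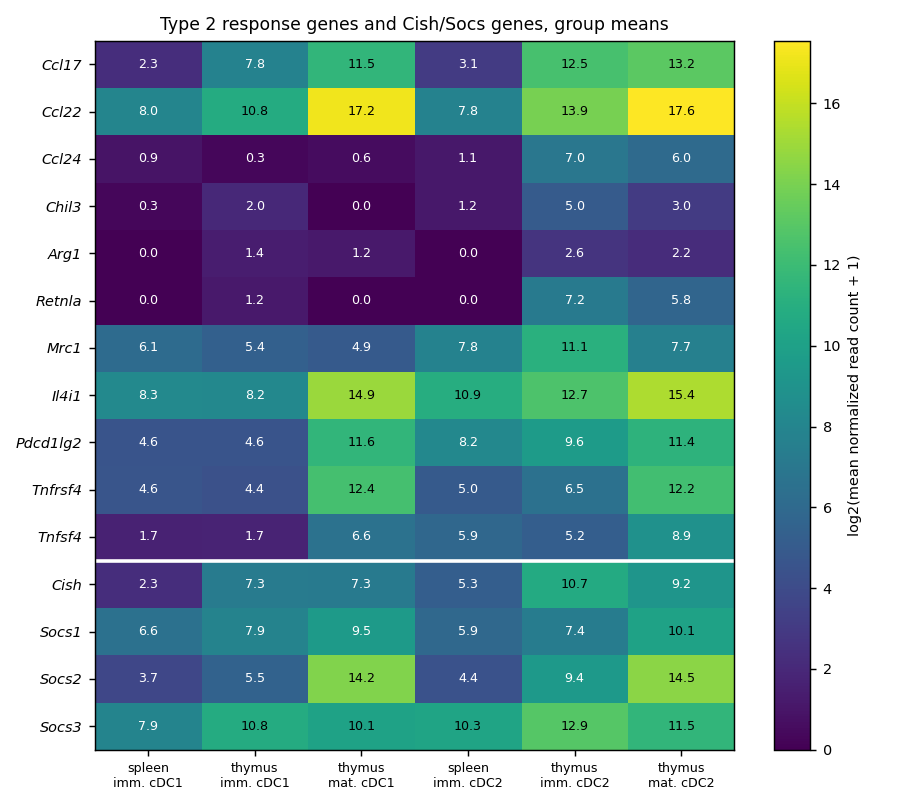
Log2 of the mean normalized read count plus 1 (colour and printed value) of 11 type 2 response genes and, below the white line, of Cish and 3 Socs genes in the 6 groups. The column of immature thymic cDC2 is above that of splenic cDC2 for 10 of the 11 genes and for all 4 regulators.

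Across the 20 samples, the genes most like each member were found among 9605 others by Pearson's correlation of log2 values, as a description over samples that share groups. Those most like Il7r were Jak2 (r = 0.97), Clcn5 (0.96) and Ccdc71l (0.95). For Il4ra they were Rbpms (0.98), Trp53inp2 (0.98) and Il21r (0.98), and for Il2rg Tmem176b (0.98), Tmem176a (0.96) and Nxpe4 (0.96). Kit was most like H2-Ob (0.99), Plekhm3 (0.98) and Ints7 (0.98), Flt3 most like Bcl9 (0.94), B3gnt5 (0.92) and Nr6a1 (0.92), and Il13ra1 most like Gab2 (0.92), Mtss1 (0.92) and Mgl2 (0.90). Csf2rb was most like Myo1c (0.99), Myo1g (0.99) and Uba7 (0.98), and Csf2rb2 most like Ankrd27 (0.97), Fam53b (0.97) and Tmem120b (0.97). Csf2ra was most like Rfx1 (0.93), Cic (0.91) and Csnk1g2 (0.91), and Crlf2 most like Ier2 (0.94), Ints1 (0.93) and Erdr1 (0.92).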

How the data were processed

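Values of 21 RNAseq libraries of sorted cDCs were read as deposited. The authors trimmed paired reads, aligned them to mm10 with STAR (2.6, per the submitters' processing notes), used HTSeq-count for the reads of each Ensembl gene, and applied the normalization of DESeq2 (1.24.0). The deposited signal is thus a read count divided by 1 size factor per library. Whole reads were recovered for 100% of values (tolerance 0.001 reads).

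From these values, log2(value + 1) was fitted with limma 3.58.1 in R 4.3.3 (lmFit, 1 mean per group, eBayes with a trend) on 20 samples and 14970 genes, since the values are not counts. Fold changes on this scale understate the change of low genes. edgeR 4.0.16 and DESeq2 1.42.0 on the recovered reads were alternatives, and the tests were checked on simulated data with 200 changed genes. Positions, lengths and GC content came from GENCODE M21, which held 37693 of the 37734 genes. Levels per length are RPKM computed from the recovered reads and the union of exons. Reads per library ranged from 14266867 to 40119669, in lanes 5 and 8, with all mature samples in lane 8.

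The genes, lists and tests were chosen with earlier results of these data known. Named are the 10 members in every comparison, called genes of the other lists with a mean of at least 100 in 1 compared group, the ligands detected, and the 3 genes most correlated with each member (mean of at least 100). Other alternatives covered the pseudocount (0.1 or 8), the filter, TMM scaling, the groups and libraries fitted, pools, the lane, a replicate block and the omission of each sample. Lane 5 alone and a centring by GC content were added after the data were seen. Some markers, and the sums that contain them, are not reported here.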

Additional observations from a re-analysis of the deposited data

Results flagged for a closer look

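In splenic cDC1, replicate 3 stood apart from the other 3 samples for 2 of the 10 receptor genes. Csf2ra was at 10693 normalized reads there, against 5360 to 5992 in the others, and Crlf2 at 1488, against 479 to 562. Of 20 groups of 4 samples tested in this way, chance alone would set about 1 apart. The genes of highest GC content were also above their group mean in this sample, by a median of 0.63 on the log2 scale.

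The effect of maturation differed between cDC2 and cDC1, by the test of the difference itself, for Il7r (-3.05 ± 0.60, SE, on the log2 scale), Il4ra (-2.30 ± 0.34) and Il2rg (-3.70 ± 0.35). The effect of the organ differed for Il7r (4.93 ± 0.58).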

How the results depend on the processing

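The number of called receptor genes stayed within 1.5 times its value in 127 of 131 other settings and 178 of 180 omissions of 1 sample. Within lane 5, where each immature thymic group has 1 sample, assumed to vary like the others, it was 0 in place of 3 for thymic against splenic cDC1, 1 in place of 3 for cDC2 and 0 in place of 1 for the difference between these effects. For mature thymic cDC2 against cDC1 it was 2 in place of 1 with TMM and between 1 and 2 when 1 sample was omitted, through Il13ra1. Changes of sign concerned values near 0 that were not called. For thymic against splenic cDC1, lane 8 gave -0.17 for Csf2ra and -0.11 for Crlf2. For cDC2, Csf2rb2 was -0.0039 with edgeR, -0.019 with DESeq2, -0.013 with lane as a covariate and -0.40 in lane 8, Csf2rb was -0.27 in lane 8, and lane 5 gave 0.29 for Csf2ra and 0.32 for Crlf2. Omission of 1 sample there gave -0.53 to 0.20 for Csf2ra, -0.0027 to 0.31 for Csf2rb, -0.078 to 0.20 for Csf2rb2 and -0.85 to 0.13 for Crlf2. For splenic cDC2 against cDC1 it gave -0.22 to 0.52 for Csf2ra. For immature thymic cDC2 against cDC1, Crlf2 was -0.0075 in lane 8 and -0.014 to 0.15 with 1 sample omitted. For mature thymic cDC2 against cDC1, GC centring gave -0.020 for Kit, -0.14 for Crlf2 and -0.078 for Il2rg, and omission of 1 sample gave -0.11 to 0.59 for Crlf2, -0.37 to 0.066 for Csf2ra, -0.066 to 0.14 for Il2rg and -0.26 to 0.020 for Il4ra. The cause was not tested.

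The main fit did not pair samples by pool number. Correlations of deviations within a pool ran from -0.15 to 0.46, too variable to tell whether pool numbers pair the samples. The highest was that between replicate 3 of splenic cDC1 and replicate 3 of splenic cDC2. With a replicate block of pool number (correlation 0.16), Crlf2 was also called between mature and immature thymic cDC2, at -1.04 (adjusted p = 0.0619), and no other call changed. All mature samples were in lane 8, and within that lane 7 (cDC1) and 5 (cDC2) of the 10 were called with maturation, as over both lanes. Groups of 3 or 4 samples limit every comparison.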
